A study of Mus musculus with 2 samples.

Results

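A group of 220 colonic epithelial cells, of 7863 cells in all, was set apart by 5 genes, and 215 of the 220 came from the library labelled Mettl14 KO. A cell was taken when it lay in cluster 0 of the authors' 7 clusters and held 2 or more UMIs, summed over Spib, Msln, Il4i1, Plb1 and H2-M2. A UMI is a tag that marks 1 captured RNA molecule. The values of these 5 genes chose the cells, so their levels are a description and support nothing. Ccl20 and Ubd, given with the selection as further marker genes, took no part in it.

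The study profiled live EpCAM-positive cells, sorted by flow cytometry from the colon of C57BL/6 mice, with the 10x Genomics 3' RNA assay. There was 1 library of genotype Mettl14 WT (4210 cells, 60205658 UMIs) and 1 of genotype Mettl14 KO (3653 cells, 37635762 UMIs). Mettl14 encodes a subunit of the complex that writes the m6A mark on RNA. The labels do not say what deletes Mettl14, in which cells, or how many animals each library pooled, and the series text gives an age or time of 2 weeks without its starting point. Both libraries hold cells with Xist and cells with Y-linked RNA, so neither is from 1 animal. The libraries shared 2 cell barcodes, and no selected cell carried one of them. With 1 library per genotype no test was possible: every interval is a 95% interval for counting error only, and every value compares these cells and libraries.

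As background, M cells are epithelial cells over lymphoid follicles that carry luminal particles to the immune cells beneath. They form when RANKL from the stroma acts on its receptor RANK in the epithelium, which turns on NF-κB and the transcription factors Spi-B and Sox8. The epithelium around them secretes Ccl20, which draws cells that bear the receptor Ccr6. Ccl20 is also a classical NF-κB target in epithelium that meets TNF, IL-1 or bacterial products. Ubd encodes a ubiquitin-like modifier that cytokines induce.

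The sequence before the start site is shown for 4 genes that set these cells apart, 2 selecting genes (Spib and H2-M2) and 2 that were not used to select (Ccl20 and Ubd). Each run covers the 250 bases before the RefSeq start site, written 5′ to 3′ on the gene's own strand (GRCm38.p6). Capitals mark matches to the κB consensus, the 10-base pattern that NF-κB dimers bind, searched on both strands. The coordinates are chr1:83116516-83116765 on the plus strand for Ccl20, chr7:44532072-44532321 on the minus strand for Spib, chr17:37193642-37193891 on the plus strand for Ubd and chr17:37483555-37483804 on the minus strand for H2-M2.
Ccl20: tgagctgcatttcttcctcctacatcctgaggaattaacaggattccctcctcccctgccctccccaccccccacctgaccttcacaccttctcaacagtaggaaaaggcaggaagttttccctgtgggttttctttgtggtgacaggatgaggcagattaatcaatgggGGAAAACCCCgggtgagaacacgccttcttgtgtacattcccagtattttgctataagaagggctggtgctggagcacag
Spib: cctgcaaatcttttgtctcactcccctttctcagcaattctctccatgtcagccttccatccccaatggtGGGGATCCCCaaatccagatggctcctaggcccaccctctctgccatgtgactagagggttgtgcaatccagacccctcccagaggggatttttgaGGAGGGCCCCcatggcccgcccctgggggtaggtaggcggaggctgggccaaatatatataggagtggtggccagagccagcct
Ubd: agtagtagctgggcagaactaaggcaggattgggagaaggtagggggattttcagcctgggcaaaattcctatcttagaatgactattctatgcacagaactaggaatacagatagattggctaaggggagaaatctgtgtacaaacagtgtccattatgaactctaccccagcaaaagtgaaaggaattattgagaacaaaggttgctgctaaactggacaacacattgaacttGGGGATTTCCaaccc
H2-M2: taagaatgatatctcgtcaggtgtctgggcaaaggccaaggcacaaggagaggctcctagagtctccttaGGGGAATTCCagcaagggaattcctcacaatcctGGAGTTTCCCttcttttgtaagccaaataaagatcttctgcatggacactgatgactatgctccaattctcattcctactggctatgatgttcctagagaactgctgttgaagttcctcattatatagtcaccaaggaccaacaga
The match begins 80 bases before the start of Ccl20 and 15 bases before that of Ubd, and the matches in Spib begin 180 and 84 bases before and those in H2-M2 180 and 146 bases before. Of 21 genes looked up, 16 had an entry, and 7 of these held a match. They were Ccl9, Ccl20, Tnfaip2, Spib, H2-M2, Ubd and Nfkbia. Of all 32851 RefSeq windows of the same length, 7.25% held one. Of the 12 genes that stood highest against both comparison groups, 9 had an entry and 3 of these held a match. The genes were chosen with their values known, and a match is a string of letters and no evidence of binding.

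The selected cells made up 26.3% of the 816 KO cells of cluster 0 (23.4% to 29.5%, exact Clopper-Pearson interval), and 5.89% of the KO library. In the WT library 5 of 1106 cluster 0 cells met the rule, or 0.452% (0.147% to 1.05%). The rule favours deep cells, so every cell was also thinned to 3000 UMIs, which left out 33 KO and 52 WT cells of cluster 0. After thinning, 133 of 783 KO cells (17.0%) and 1 of 1054 WT cells (0.0949%) met it. The share was 26.4% among 447 KO cluster 0 cells taken as female by their Xist and Y-linked UMIs and 26.4% among 197 taken as male.

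**Figure D1:**
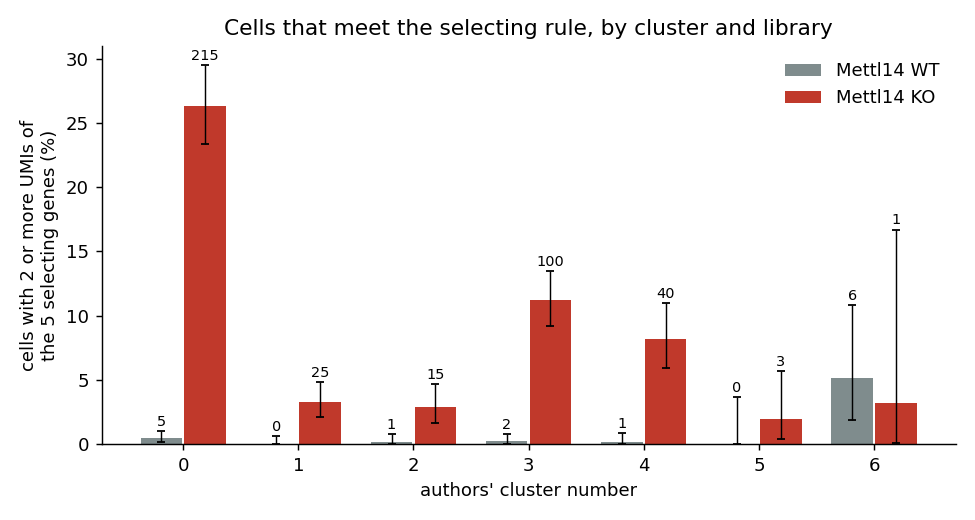
Percent of cells of each cluster (x axis) with 2 or more UMIs of the 5 selecting genes (y axis) in the WT (grey) and KO (red) library, with exact 95% Clopper-Pearson intervals and the number of such cells above each bar. The KO bar of cluster 0 stands at 26.3%, and KO clusters 3 and 4 follow at 11.2% and 8.16%.

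Outside cluster 0, a further 184 KO cells met the same threshold, so that cluster 0 held 53.9% of the 399. Cluster 3 held 100 of 890 cells (11.2%), cluster 4 held 40 of 490 (8.16%), cluster 1 held 25 of 755 (3.31%), cluster 2 held 15 of 520 (2.88%), cluster 5 held 3 of 151 (1.99%) and cluster 6 held 1 of 31 (3.23%). A droplet that joins a female and a male cell can hold both Xist and Y-linked UMIs, and droplets with both are called mixed-sex here. Free RNA in a deep cell can give the same reading, so it was not shown that each held more than 1 cell. Mixed-sex droplets made up 59 of the 184 cells outside cluster 0 (32.1%), 14 of the 215 selected cells (6.51%) and 25 of the remaining KO cluster 0 cells (4.16%). In clusters 1 and 2 the cells that met the rule were also deep, with medians of 17607 and 19534 UMIs against 10168 and 9100 in the rest. The selected cells lay closer to their cluster, with a median of 8902 UMIs against 7564. Doublets of the same sex could not be seen and were not removed.

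In the WT library, cluster 6 had the highest share, 6 of 117 cells (5.13%). The 5 WT cells of cluster 0 held 8 UMIs of Spib, 6 of Il4i1 and 8 of H2-M2, none of Msln or Plb1, 1 of Ccl20 and none of Ubd, Ccl9, Sox8 or Gp2. One of them held 7 UMIs of Ptprc, the pan-leukocyte surface phosphatase CD45. Fabp5 was seen in 4 of the 5 and Serpinb1a in all 5. The 5 WT cells thus held almost none of Ccl20, Ubd and Ccl9, and the values from here on are for the 215 KO cells.

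Among the selected cells the 5 selecting genes were unevenly spread. The selected cells held a median of 6 selecting UMIs, with a highest value of 63. Spib, an Ets family transcription factor, had UMIs in 132 cells (61.4%), Il4i1, a secreted amino acid oxidase, in 140 (65.1%), Msln, the surface protein mesothelin, in 126 (58.6%), Plb1, a brush border phospholipase, in 95 (44.2%) and H2-M2, an MHC class Ib gene, in 160 (74.4%). All 5 genes were found together in 41 cells and only 1 gene in 29 cells, of which 22 held H2-M2 alone, 6 Msln alone and 1 Plb1 alone. No cell was selected by Spib alone or by Il4i1 alone. In the remaining cells of cluster 0, H2-M2 was the most often seen of the 5 with 68 of 601 cells (11.3%), against 8 cells (1.33%) for Spib. As summed levels, Spib stood at 266 CPM in the selected cells (CPM is the gene's UMIs scaled by all UMIs of the group), 0.769 CPM in WT cluster 0 and 0.408 CPM in WT cluster 4.

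Levels outside the selecting genes went with the number of selecting UMIs. Just outside the threshold lay 123 KO cluster 0 cells with 1 selecting UMI, and just inside lay 38 cells with 2. Ccl20 stood at 128 CPM (106 to 152) in the former and 140 CPM (104 to 183) in the latter, intervals that overlap. It stood at 21.1 CPM in the 478 cells with none, 264 CPM in the 44 cells with 3 or 4, and 2471 CPM (2389 to 2556) in the 133 cells with 5 or more. Fabp5, a fatty acid binding protein, showed the same jump at the top, with 95.3, 87.4, 126, 196 and 2314 CPM in that order of selecting UMIs. Ubd went up in smaller steps, with 90.8, 264, 408, 403 and 751 CPM.

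Several genes were close to absent until 5 selecting UMIs were reached. Sox8, an M cell transcription factor, had 54.7 CPM (43.0 to 68.6) in the cells with 5 or more and 0, 0, 8.06 and 0 CPM in the bins below. Clu, the secreted chaperone clusterin, had 197 CPM at the top and between 2.51 and 6.03 CPM in the other bins. Krt20, a keratin of mature surface cells, had 43.8 CPM at the top and at most 3.51 CPM elsewhere. The cells with 2 to 4 selecting UMIs thus stood nearer to those with 5 or more in Ubd than in Sox8, Clu or Krt20. Lgr5, the stem cell receptor for R-spondins, ran the other way: 14.3 CPM in cells with no selecting UMI and 0 UMIs in the cells with 3 or more.

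**Figure D2:**
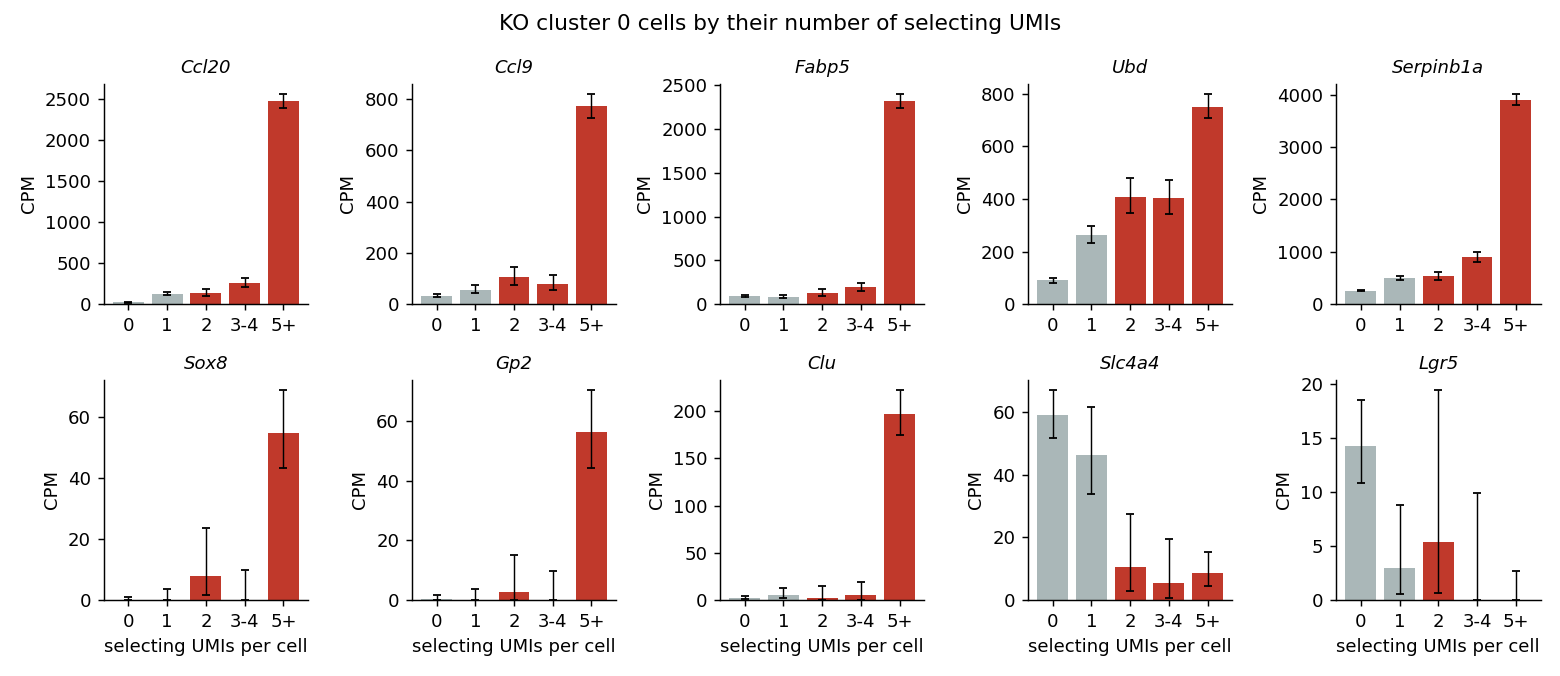
CPM (y axis, separate linear scales) of 10 genes in KO cluster 0 cells grouped by their number of selecting UMIs (x axis), with exact 95% Poisson intervals. Red bars are selected cells and grey bars are the remaining cells of the cluster, and Ccl20 reaches 2471 CPM in the cells with 5 or more.

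The selected cells were then set against the remaining 601 KO cells of cluster 0 (4984025 UMIs) and against all 490 KO cells of cluster 4 (4945227 UMIs), a cluster that held RNA of surface colonocyte genes such as Aqp8 and Car4. They held 2114669 UMIs themselves, and their median share of mitochondrial UMIs was 13.4%, against 12.5% and 12.3%. A gene counted as measured with 50 UMIs over both groups, and as higher or lower at 2-fold, which is a rule of size and no test. Over all genes, 396 of 8812 (4.49%) were higher and 295 (3.35%) lower than in the rest of cluster 0. Against cluster 4, 325 of 8844 (3.67%) were higher and 387 (4.38%) lower. The selecting rule used these same cells, so the counts describe and nothing is read from their size. Both comparisons share the selected cells, and their values are given side by side. Without mitochondrial, ribosomal-protein and haemoglobin genes in the total, the split against the rest of cluster 0 became 312 higher and 375 lower, and the median of all genes moved from -0.00 to -0.11 on the log2 scale.

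**Figure D3:**
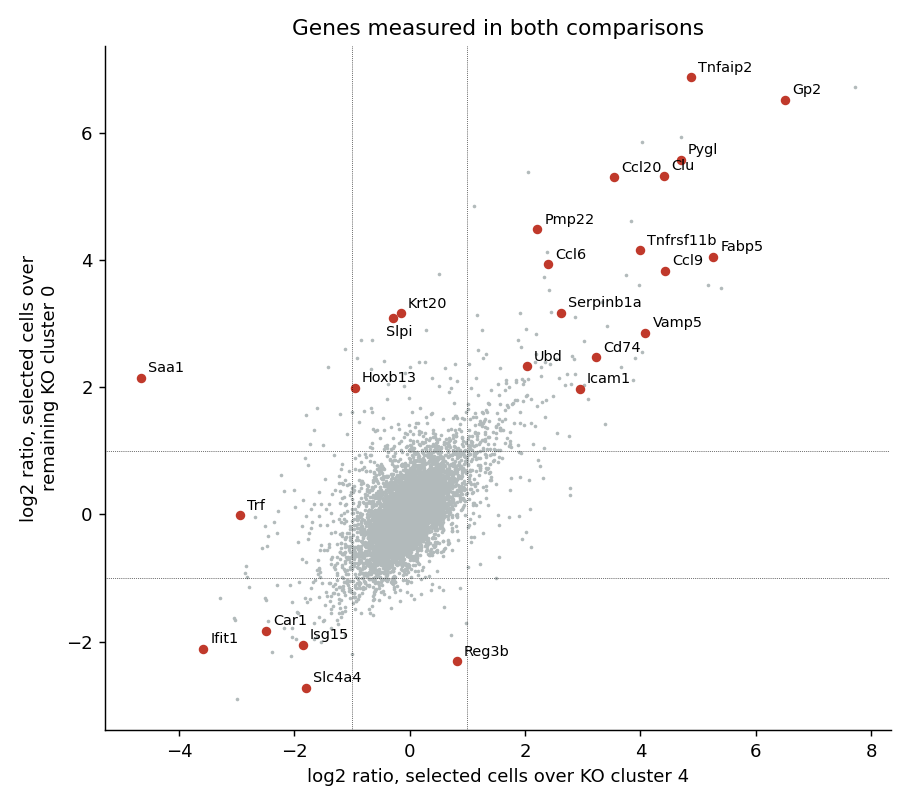
Each point is a gene measured in both comparisons: log2 ratio of the selected cells over KO cluster 4 (x axis) and over the remaining KO cluster 0 cells (y axis), with dotted lines at 2-fold and genes of the text in red. A gene with 0 UMIs in a group is drawn against 3 counts, Ccl20 lies at 5.30 on the y axis and 3.54 on the x axis, and Saa1 lies at 2.15 and -4.66.

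Genes of M cells and of the epithelium over follicles were mostly higher in the selected cells in both comparisons. Of 24 such genes in the list, 20 were measured against the rest of cluster 0, 16 were higher and none lower, with a median log2 ratio of 2.46. Against cluster 4 it was 16 of 20 higher and none lower, with a median of 2.15. The medians of all genes were -0.00 and -0.04. The list was drawn up with earlier results of these data known, and Spib itself is an M cell factor, so the counts are not independent of the selection. Of the 20 measured genes, 6 had under 50 UMIs in the rest of cluster 0 and 7 in cluster 4. Among them Sox8, Gp2, Tnfaip2, Clu and Tnfrsf11b reached the minimum mainly through the selected cells and so had to differ, and the counts and medians are a description only.

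Sox8 had 78 UMIs in 48 selected cells, 36.9 CPM (29.2 to 46.0), and none in the remaining cluster 0 cells, at least 61.3-fold higher when 3 counts are set for that group. In KO cluster 4 it stood at 1.42 CPM, and in WT clusters 0 and 4 no UMI was seen. Gp2, the M cell receptor for bacterial fimbriae, also had 78 UMIs, but in only 10 selected cells, and 3 of them held 69.2%. Its log2 ratio was 6.52 (4.62 to 9.59) against the rest of cluster 0, where 2 UMIs were found. In WT cluster 0, all 104 Gp2 UMIs lay in 33 cells rich in pancreatic enzyme RNA, and no selected cell was of that kind. Tnfaip2, an M cell gene that TNF induces, had 50 UMIs in 27 selected cells against 1 UMI in the remaining cluster 0 cells (log2 ratio 6.88, 4.34 to 12.21) and 4 UMIs in cluster 4 (4.87, 3.42 to 6.80).

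RANK itself, encoded by Tnfrsf11a, stood at 269 CPM against 172 and 189 CPM, log2 ratios of 0.65 (0.49 to 0.80) and 0.51 (0.36 to 0.66), higher but under 2-fold. It was at 158 CPM in cells with no selecting UMI and 295 CPM in cells with 5 or more. Tnfrsf11b, which encodes the soluble decoy osteoprotegerin that binds RANKL, stood at 61.0 CPM in the selected cells, 3.41 CPM in the remaining cluster 0 cells and 3.84 CPM in cluster 4. The log2 ratios were 4.16 (3.43 to 4.98) and 3.99 (3.29 to 4.77), and 52 selected cells (24.2%) held a UMI, against 3.31% in KO cluster 5. Tnfrsf11b, unlike Tnfrsf11a, reached the minimum of UMIs mainly through the selected cells and so had to differ. The decoy and the receptor are therefore not ranked by the size of their ratios.

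The serpin Serpinb1a, an inhibitor of neutrophil proteases, was the most abundant gene of the list, with 2778 CPM in the selected cells, 308 CPM in the remaining cluster 0 cells and 451 CPM in cluster 4. It was seen in 208 of 215 selected cells (96.7%), but also in 76.4% of the rest of cluster 0, 88.0% of cluster 4 and 98.0% of KO cluster 5, so its level and not its share sets the selected cells apart. The log2 ratios were 3.17 (3.09 to 3.26) and 2.62 (2.55 to 2.69). Serpinb6a, its relative, was higher by 2.01 and 1.73. Fabp5 stood at 1556, 93.7 and 40.4 CPM in the selected cells, the rest of cluster 0 and cluster 4, and its ratios were 4.05 (3.91 to 4.20) and 5.27 (5.06 to 5.48). Fabp5 UMIs were in 76.7% of the selected cells and in 58.9% of KO cluster 5. Pglyrp1, a secreted peptidoglycan-binding protein, stood at 1845 CPM in the selected cells and was higher by 1.52 than in the rest of cluster 0 and by 0.82 than in cluster 4.

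The 4 list genes that were measured and under 2-fold apart from the rest of cluster 0 were Tnfrsf11a, Marcksl1 (0.52), Prnp (0.38) and Cyba (0.68). Icam2 had no UMI in any of the 3 KO groups, and Siglecf had none in the selected cells. Of the 7 M cell marker genes that did not select cells, 145 selected cells (67.4%) held UMIs of 3 or more, against 93 of the 601 remaining cells (15.5%) and 67 of the 490 cluster 4 cells (13.7%). No selected cell lacked all 7, but few cells of the comparison groups did so either, 18 of the 601 remaining cells and 4 of the 490 cluster 4 cells. All 7 were held by 1 selected cell and by no cell of the comparison groups.

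**Figure D4:**
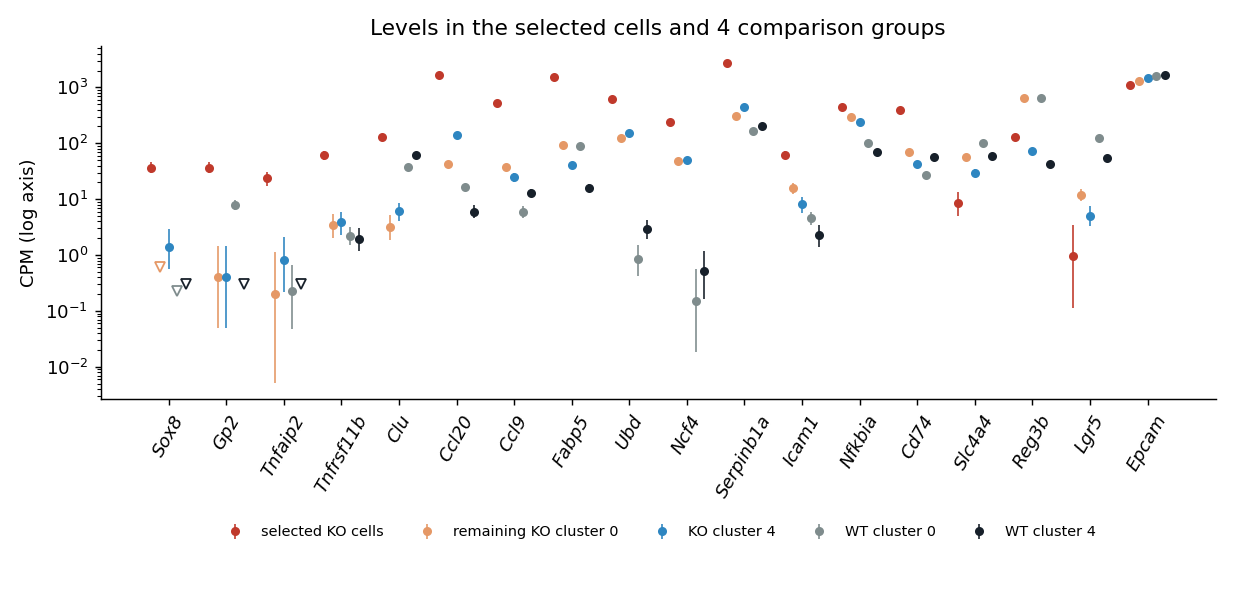
CPM (y axis, log scale) of 18 genes (x axis) in the 215 selected KO cells (red) and in the other 4 groups, each point a sum over cells with its exact 95% Poisson interval. Open triangles mark 0 UMIs and are drawn at 3 counts; Sox8 stands at 36.9 CPM in the selected cells and at 0 in 3 groups.

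Among the 25 lists of functions, chemokines had the highest median in both comparisons. Of 7 measured, 5 were higher and none lower than in the rest of cluster 0, with a median log2 ratio of 2.58, and against cluster 4 the count was 5 higher, 1 lower, median 2.28. Of the higher genes, Ccl20, Ccl9 and Cxcl16 were also counted in the M cell list, so the lists are not separate. Ccl20 stood at 1673 CPM (1618 to 1729) in the selected cells, 42.3 CPM in the rest of KO cluster 0, 144 CPM in KO cluster 4, 16.5 CPM in WT cluster 0 and 6.02 CPM in WT cluster 4. The ratios were 5.30 (5.10 to 5.51) and 3.54 (3.43 to 3.66). The selected cells were the highest of the 5 groups and KO cluster 4 the next.

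Ccl20 was not spread evenly over the selected cells. It was seen in 159 of them (74.0%), with a median of 5 and a highest value of 160 UMIs per cell, against 64 of 601 remaining cluster 0 cells (10.6%) and 123 of 490 cluster 4 cells (25.1%). KO cluster 5 is given as a further group for comparison, with Ccl20 in 6 of 151 cells (3.97%) at a median of 5492 UMIs per cell. Whether those UMIs are free RNA was not tested. After thinning to 3000 UMIs the shares were 63.3%, 6.46%, 16.2% and 0.671%.

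Ccl9, a myeloid-cell attractant made by follicle epithelium, stood at 533, 37.3 and 24.9 CPM in the selected cells, the rest of cluster 0 and cluster 4, with ratios of 3.84 (3.61 to 4.07) and 4.42 (4.15 to 4.70). Ccl6, from the same gene family, stood at 365, 23.9 and 69.2 CPM. Ccl25, whose receptor Ccr9 guides lymphocytes to the gut, and Cxcl16, a membrane-bound chemokine, were higher by 2.18 and 2.58 than in the rest of cluster 0. Ccl28, which attracts plasma cells, was the lower gene against cluster 4, with a ratio of -1.74. The neutrophil attractants Cxcl1, Cxcl2 and Cxcl5 were below the 50 UMIs needed. Of these, Cxcl2 had 21 UMIs in the selected cells against 1 UMI in the rest of cluster 0 (log2 ratio 5.63, with an interval from 2.99 up) and 16 UMIs in cluster 4.

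The NF-κB list was higher in part. Of 23 measured targets and regulators, 8 were higher and none lower than in the rest of cluster 0, with a median of 0.71, and of 24 measured against cluster 4, 7 were higher and 1 lower, with a median of 0.49. The 8 were Tnfaip2, Nfkbie, Icam1, Tnip1, Birc3, Nfkb2, Bcl3 and Tnip3. Of the measured genes, 4 had under 50 UMIs in the rest of cluster 0 and 5 in cluster 4. Tnfaip2, also counted in the M cell list, and Nfkbie reached the minimum mainly through the selected cells and so had to differ. The counts and medians are a description only. Icam1, the adhesion molecule for leukocyte integrins, stood at 62.4, 15.9 and 8.09 CPM in the selected cells, the rest of cluster 0 and cluster 4 (1.98, 1.56 to 2.40, and 2.95, 2.43 to 3.50). Nfkbie, an inhibitor of NF-κB, was higher by 2.04 and 2.69, and Tnip1, a partner of the inhibitor A20, by 1.88 and 1.55.

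Other NF-κB genes were nearer to level. Nfkbia, the inhibitor IκBα, stood at 445 CPM in the selected cells against 293 and 238 CPM, ratios of 0.60 (0.48 to 0.72) and 0.90 (0.78 to 1.03), with 102 and 69.3 CPM in WT clusters 0 and 4. The subunits Nfkb2 and Relb, of the branch that RANK drives, were higher by 1.17 and 0.95 than in the rest of cluster 0, while Rela and Nfkb1 were apart by -0.48 and 0.30. Tnf had 22 UMIs in the selected cells and ratios of -0.28 (-1.05 to 0.44) and 0.56 (-0.28 to 1.37), both intervals holding equal levels.

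Ubd was measured in nearly all selected cells, 205 of 215 (95.3%), against 235 of 601 remaining cluster 0 cells (39.1%), 165 of 490 cluster 4 cells (33.7%) and 21 of 151 cluster 5 cells (13.9%). Its level was 629 CPM (596 to 664) in the selected cells, 125 CPM in the rest of cluster 0, 154 CPM in cluster 4, and 0.846 and 2.96 CPM in WT clusters 0 and 4. The ratios were 2.33 (2.19 to 2.47) and 2.03 (1.90 to 2.16). Each of these 3 KO groups was thus above both WT groups in Ubd, and the selected cells were the highest.

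Interferon response genes were split by comparison group. Of 24 measured against the rest of cluster 0, 1 was higher (Samd9l, an interferon-induced antiviral factor, 1.33) and 2 were lower (Ifit1, an interferon-induced RNA-binding protein, -2.11, and Isg15, a ubiquitin-like modifier, -2.05), with a median of -0.20. Against cluster 4, 1 was higher and 5 lower, with a median of -0.16. Isg15 stood at 9.46 CPM in the selected cells, 39.1 CPM in the rest of cluster 0 and 34.2 CPM in cluster 4. Within the KO library the interferon list was thus not higher in the selected cells than in the other 2 KO groups.

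Against WT cluster 0, 12.5% of 10337 measured genes were higher and 11.2% lower. Of 21 measured interferon genes, 9 were higher and none lower, with a median of 0.83. They included Irf7, a transcription factor of the interferon response, Bst2 and Ifitm3, antiviral membrane proteins, and Samd9l. In the same comparison 7 of 8 chemokines were higher and 1 lower (median 3.43), 15 of 25 NF-κB genes higher and 2 lower (median 1.15), and 19 of 20 M cell genes higher and none lower (median 3.38). This comparison joins the selection with the genotype, and with 1 library each the genotype and the library cannot be told apart. Pancreatic enzyme RNA also differed, at 80.9 CPM in the selected cells and 7606 CPM in WT cluster 0. Since only part of the NF-κB list was higher and the interferon list went by comparison group, the cells are called here by the genes that selected them.

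Cytokine receptors were mostly under 2-fold apart. Of 20 cytokine and receptor genes measured against the rest of cluster 0, 5 were higher and none lower, with a median of 0.56, and against cluster 4, 3 of 21 were higher and 1 lower. The 5 were Il1rn, the IL-1 receptor antagonist (2.39), Il4ra (1.11), Il17rc (1.07), Il10rb (1.04) and Il6st, the shared chain of the IL-6 family receptors (1.03). Against cluster 4, Il1rn was level at 0.15 (-0.25 to 0.55), and the 3 higher genes were Ltb, encoding lymphotoxin beta (2.23), Il6st and Il4ra. In the TNF death receptor list of 28 measured genes, Tnfrsf1b, the second TNF receptor (2.64), Pmaip1 (1.64) and Casp4 (1.03) were higher. Bcl2, the survival factor, was lower (-1.10), and the median of the list was 0.23. Pmaip1 reached the minimum of UMIs mainly through the selected cells and so had to differ from the rest of cluster 0.

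Antigen presentation was split within its lists. Cd74, the invariant chain that escorts MHC class II proteins, stood at 394 CPM in the selected cells, 71.0 CPM in the rest of cluster 0 and 41.9 CPM in cluster 4. The ratios were 2.47 (2.29 to 2.65) and 3.23 (3.01 to 3.46). Cd74 was seen in 177 of 215 selected cells (82.3%), against 22.3% of the rest of cluster 0, 13.9% of cluster 4 and 7.28% of cluster 5. The class II chains did not go with it: H2-Eb1 was lower than in the rest of cluster 0 (3.78 against 8.63 CPM, -1.19, -2.49 to -0.08) and H2-Aa stood at 5.67 against 10.0 CPM. Of 17 class I and peptide-loading genes 1 was higher (H2-T23, 1.01), with a median of 0.39, and H2-K1, a classical class I chain, had ratios of 0.88 and -0.17 against the rest of cluster 0 and cluster 4.

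Subunits of the phagocyte NADPH oxidase stood out in the oxidase list, in which 4 of 19 measured genes were higher and 3 lower than in the rest of cluster 0. Ncf4, which encodes p40phox, stood at 240 CPM in the selected cells, 48.4 and 49.5 CPM in the other KO groups and 0.154 and 0.510 CPM in WT clusters 0 and 4. It was seen in 175 selected cells (81.4%), in 25.8% of the rest of cluster 0, in 28.2% of cluster 4 and in 5.30% of cluster 5. The ratios were 2.31 (2.09 to 2.54) and 2.28 (2.05 to 2.50). Ncf1, which encodes p47phox, was higher by 5.85 and 4.03, but reached the 50 UMIs mainly through the selected cells and so had to differ. The membrane subunit gene Cybb had 2.84 CPM and was not measured, and the epithelial oxidase Duox2 was lower, at 3.78 against 9.43 and 37.0 CPM.

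Some of these genes are also used by leukocytes, so leukocyte markers were read in the same cells. Rac2, a GTPase of blood cells, stood at 105 CPM in the selected cells against 11.6 and 19.2 CPM, and Arhgdib at 21.3 against 5.22 and 2.63 CPM. They were the 2 higher genes of the 8 pan-leukocyte markers, of which 3 were measured. Arhgdib reached the minimum of UMIs mainly through the selected cells and so had to differ. The 8 markers summed to 154 CPM against 37.9 and 45.1 CPM, with no marker at 0. Ptprc was at 2.84 CPM (6 UMIs in 4 selected cells) against 2.41 and 3.03 CPM. The 12 B cell markers summed to 2.36 CPM against 1.40 and 5.06 CPM, with 9 genes at 0 in the selected cells. The 17 T and NK cell markers summed to 4.26 CPM against 3.41 and 1.82 CPM, with 13 at 0. The 19 macrophage and dendritic cell markers summed to 167 CPM against 162 and 183 CPM, with 5 at 0, and C1qa lay in 14 selected cells. The 10 neutrophil markers summed to 21.8 CPM against 7.62 and 62.7 CPM, with 4 at 0. Epcam, the gene of the sorting marker, had UMIs in 213 of 215 selected cells, at 1096 CPM against 1291 and 1495 CPM. Without cells that held a Ptprc UMI, the counts against the rest of cluster 0 were 395 higher and 304 lower.

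The remaining genes that stood highest were of mixed function. Against the rest of cluster 0 these included Pygl, liver-type glycogen phosphorylase (57.7 against 1.20 CPM, 5.58), Pmp22, a membrane protein known from myelin (144 against 6.42 CPM, 4.49) and Cyp2d10, a cytochrome P450 (25.1 against 0.602 CPM, 5.38). Against cluster 4 they included Exoc3l4 (5.40), Slc2a6, a glucose transporter family member (5.18), and Vamp5, a vesicle fusion protein (4.08). Vamp5 stood at 182 CPM in the selected cells, 25.1 and 10.7 CPM in the other KO groups and 0.923 and 1.33 CPM in WT clusters 0 and 4. Gcnt2, a glycosyltransferase that builds branched I antigen (4.62 and 3.83), and Cfp, properdin of the complement pathway (3.77 and 3.75), were high against both.

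Genes of stem cells and DNA replication were lower. Of 25 measured stem and Wnt genes, 10 were lower and none higher than in the rest of cluster 0, with a median of -0.71, and of 30 S phase genes 16 were lower and none higher, with a median of -1.003. Lgr5 had 2 UMIs, both in 1 selected cell, or 0.946 CPM, against 12.04 CPM in the rest of cluster 0 and 5.06 CPM in cluster 4, and 123 and 54.2 CPM in WT clusters 0 and 4. Smoc2, a matrix protein of stem cells, had a ratio of -1.93 (-3.31 to -0.81), and Hopx, a reserve stem cell marker, one of -1.47. Rrm2, which supplies nucleotides for DNA synthesis, had a ratio of -1.56, and Mcm5 of the replicative helicase one of -1.34.

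Against cluster 4 these differences were smaller, with 3 of 24 stem genes lower and 1 higher (median -0.27) and 3 of 30 S phase genes lower (median -0.47). Among 18 genes of G2 and M phase, 3 were lower than in the rest of cluster 0 (Ube2c, Ccnb2 and Top2a), and Mki67, a marker of cycling cells, stood at 63.4 CPM against 73.4 and 63.5 CPM.

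Mature colonocyte genes had a median above that of the rest of cluster 0 and below that of cluster 4, while single genes lay between, above or below both. Of 29 measured absorption and transport genes, 10 were higher and 3 lower than in the rest of cluster 0 (median 0.46), but against cluster 4, 1 of 37 was higher and 14 lower (median -0.58). The first median was 0.17 in cells of low mitochondrial share and the second -0.10 in male cells. The medians of the genes' own lower and upper bounds were -0.14 and 0.54 for the first, and -0.79 and 0.22 for the second. These bounds belong to single genes and are no interval for a list median. Krt20 stood at 28.8 CPM, 3.21 CPM in the rest of cluster 0 and 32.2 CPM in cluster 4. Guca2b, the gut peptide uroguanylin, stood at 520, 177 and 297 CPM, above both. Surface transporters of cluster 4 were nearly absent: Aqp8, a water channel, had 1 UMI in the selected cells against 42.9 CPM (-6.50), Car4, a surface carbonic anhydrase, had 0 UMIs against 20.6 CPM, at least 14.5-fold lower, and the proton pump Atp12a had 2.36 against 80.5 CPM.

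Other genes of cluster 4 were low as well. Tgm3, a transglutaminase, stood at 2.84 against 98.1 CPM, Emp1 had 0 UMIs against 24.9 CPM, at least 17.5-fold lower, and Trf, transferrin, stood at 29.8 against 230.3 CPM. Slc4a4, the bicarbonate cotransporter, was low against both groups, at 8.51 CPM in the selected cells, 56.4 CPM in the rest of cluster 0 and 29.5 CPM in cluster 4, and in WT clusters 0 and 4 it stood at 100.2 and 60.3 CPM. Car1, a cytosolic carbonic anhydrase, stood at 52.0 against 185 and 294 CPM, with 61.8% of its 110 UMIs in 3 selected cells. In male cells alone its ratio against the rest of cluster 0 turned to 0.38.

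Further genes below the rest of cluster 0 were Reg3b, a bactericidal lectin (131 against 649 CPM, -2.31, -2.50 to -2.14), Cbs of sulfur amino acid metabolism (-2.20), Mgst1, a glutathione transferase (-1.55), Gsdmc2, a gasdermin (-1.79), Tcea3 (-2.22), Ugt2b35, a glucuronosyltransferase (-1.95), and the position-specifying genes Hoxb7 (-1.90) and Osr2 (-1.89). Reg3b had a ratio of 0.81 against cluster 4, which ran from -1.23 to 1.30 over the other settings tried, and 3 of its 27 positive cells held 59.8% of the UMIs. Hoxb13, the most distal Hox gene of the colon, was higher than in the rest of cluster 0 (166 against 41.7 CPM) and lower than in cluster 4 (323 CPM, -0.95).

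Antimicrobial and acute phase genes differed by comparison, with 5 higher and 3 lower of 15 against the rest of cluster 0 (median 0.42), and 3 higher and 9 lower of 19 against cluster 4 (median -0.90). Saa1, serum amyloid A, stood at 23.2 CPM against 586 CPM in cluster 4 (-4.66), and Saa3 had 2 UMIs against 46.9 CPM. The protease inhibitor Slpi (58.2 against 6.82 CPM in the rest of cluster 0) rested on 1 selected cell, which held 105 of its 123 UMIs. Wfdc17, of the same family of small inhibitors, was higher by 2.52 and 1.31. Genes of regeneration and fetal-like epithelium were 6 higher and 1 lower of 17 against the rest of cluster 0 (median 0.79) and 1 higher and 7 lower of 19 against cluster 4 (median -0.48), and the 1 was Clu, at 129 CPM against 3.21 and 6.07 CPM. Ly6a, a fetal-like marker, stood at 279, 67.6 and 361 CPM.

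**Figure D5:**
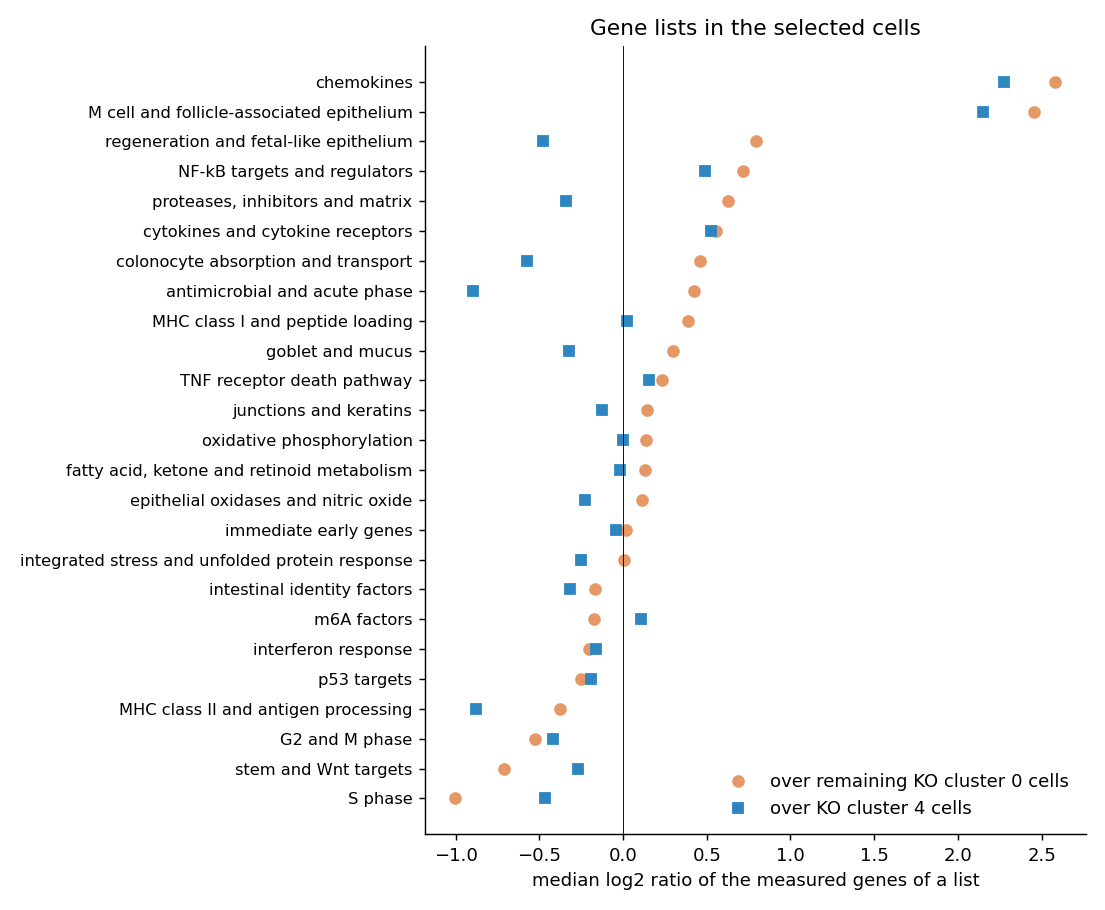
Median log2 ratio (x axis) over the measured genes of each of 25 lists (y axis), for the selected cells over the remaining KO cluster 0 cells (orange circles) and over KO cluster 4 (blue squares). Chemokines (2.58 and 2.28) and M cell genes (2.46 and 2.15), lists that share genes, lie far right in both. S phase genes lie lowest against the rest of cluster 0 at -1.003.

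Mettl14 RNA was seen in 15 selected cells, 1 UMI each, or 7.09 CPM (3.97 to 11.7), against 8.63 CPM in the rest of KO cluster 0, 4.25 CPM in KO cluster 4, and 10.5 and 11.4 CPM in WT clusters 0 and 4. The ratio against the rest of cluster 0 was -0.28 (-1.24 to 0.59), so a difference was not detectable at this depth. A 3' tag can come from a transcript that lacks a deleted exon, so this level does not check the deletion. Of 21 measured m6A factors none was 2-fold apart in that comparison (median -0.17), and Mettl3, the catalytic partner, stood at 9.93 against 10.4 CPM.

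The same genes were read in the KO cells outside cluster 0 that met the rule, each set against the rest of its own cluster. In cluster 3, 8 of 15 measured M cell genes were higher and none lower (median 1.05), where 1.68% of all 9653 genes were higher and 2.89% lower. In cluster 4, it was 7 of 13 and none lower (median 1.15), where 2.62% of 7833 genes were higher and 4.21% lower. Ccl20 was higher by 3.64 (3.38 to 3.90) in cluster 3 and by 2.48 (2.25 to 2.70) in cluster 4, and Ubd by 1.98 and 2.02. Sox8 had 8 UMIs in the 100 cells of cluster 3 and 7 UMIs in the 40 cells of cluster 4 that met the rule, and 0 in the rest of both. S phase genes were level in cluster 3 (median -0.17, 1 of 34 lower) and lower in cluster 4 (median -1.11, 16 of 27 lower). Mixed-sex droplets made up 22 of the 100 and 11 of the 40 cells, and their part in these values was not tested.

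In the 44 KO cells of clusters 1, 2, 5 and 6 that met the rule, set against the rest of those clusters, 9 of 17 measured M cell genes were higher and 1 lower (median 1.005), where 4.2% of 10253 genes were higher and 3.54% lower. The lower gene was Scg5, a secretory granule protein. Cell cycle genes were higher here: of 31 S phase genes 8 were higher, and of 27 genes of G2 and M phase 22 were, with none lower and medians of 0.73 and 1.43. Mixed-sex droplets made up 14 of the 25 cells of cluster 1 and 10 of the 15 of cluster 2, and their part was not tested.

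Within cluster 0, the same was read in female and in male cells apart, each against the remaining cells of its sex. In female cells 13 of 17 measured M cell genes were higher and none lower (median 2.26), where 4.14% of 7271 genes were higher and 2.72% lower. In male cells 10 of 13 were higher and none lower (median 2.90), where 6.52% of 4049 genes were higher and 4.72% lower. The S phase medians were -0.94 and -1.10, and the NF-κB medians 0.74 and 1.06. The sign was the same in both sexes in these 3 lists. Cells of both sexes were chosen by the same rule from the same library, so this is a description and no replication.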

How the data were processed

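The authors deposited a single matrix of UMI counts that covers both libraries (17829 gene symbols, 7863 cells), with the library and cluster of every cell in a second table. The counts are whole numbers and raw. Per the submitters' processing notes, bcl2fastq, Cell Ranger and the build mm10 were used; versions, cell filter and clustering method are not given in the sources used here. The shallowest cell held 792 UMIs.

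To give CPM, the counts of a group's cells were added up and scaled by their total. Intervals at 95% are exact Poisson for CPM, exact Clopper-Pearson for shares and exact conditional for ratios, and cover counting error only. A list median has no interval of its own, and bounds given with one are the medians of its genes' lower and upper bounds. With 1 library per genotype there is no test and no p-value. Where a group had 0 counts, a floor of 3 counts over the group was used. The cells and the gene lists (25 of functions, 18 of markers) were chosen with earlier results of these data known. Genes under 50 UMIs over both groups, and the 5 selecting genes, stayed out of counts and medians. A gene rare in the comparison group can reach 50 UMIs mainly through the selected cells, and its difference then follows from the filter. Besides the genes marked so above, Krt20, Saa1, Slpi, Il1rn and Cxcl16 had under 50 UMIs in the rest of cluster 0.

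Named genes were the 12 highest and 12 lowest against the rest of KO cluster 0, and the 8 highest and 8 lowest against KO cluster 4, by the interval bound nearest to equal levels and at 20 CPM or more. The 12 highest against both, up to 4 per list, the most abundant marker of each cell type and 19 genes set by name were added. Predicted genes were not named. Further genes of a list were named after their values were seen, to account for its counts.

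A cell's sex was read as female from 3 or more UMIs of Xist where 4 Y-linked genes had none, as male from Y-linked UMIs without Xist, and as mixed where both were present. Enzyme-rich means that pancreatic enzymes held 1% of a cell's UMIs or more. No doublet was removed. Start sites and sequences are from RefSeq (GRCm38.p6). On simulated counts of the same depths, the interval excluded equal levels for 95% of 100 genes set 2-fold apart among 8817 in the comparison with the rest of cluster 0, and for 100% of 100 set 4-fold apart. The simulated sums followed the Poisson model behind the interval, without spread between cells. They check the calculation and not how reliable the ratios are. The alternatives changed the threshold, the selecting genes, depth, cells kept, scaling and gene filter. Python 3.11.15, numpy 2.4.6, scipy 1.17.1, pandas 2.3.3 and matplotlib 3.10.9 were used. Values of a few list genes are not reported here.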

Additional observations from a re-analysis of the deposited data

Results flagged for a closer look

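Cells that met the rule in clusters 0, 3 and 4 were compared for genes named by the rule that went opposite ways, each side set against the rest of its own cluster with an interval that excludes equal levels. Of 148 genes, 17 did so between clusters 0 and 3 and 14 between clusters 0 and 4. The 7 cases at 2-fold or more on both sides are given here, and that minimum was set after the 31 cases had been seen. None was found between female and male cells. The differences between clusters were not tested.

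Saa1 had a log2 ratio of 2.15 in cluster 0, -2.12 in cluster 3 and -1.44 in cluster 4. In cluster 0, 87.8% of its 49 UMIs lay in 3 cells. Slpi had 3.09 in cluster 0, -3.53 in cluster 3 and -1.81 in cluster 4, with 94.3% of its 123 UMIs in 3 cells of cluster 0. St3gal4, a sialyltransferase, had 1.68 in cluster 0 and -1.15 in cluster 3. S100a14, a calcium-binding protein, had 1.63 in cluster 0 and -1.16 in cluster 4. Reg4, a secreted lectin of deep crypt cells, had -1.06 in cluster 0 and 1.04 in cluster 4.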

How the results depend on the processing

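Of 1403 gene ratios under other settings 1206 stayed within the main interval, 196 left it and 1 that was past 2-fold changed sign, that of Car1 against the rest of cluster 0 in male cells (0.38). A further 29 ratios under 2-fold changed sign, among them Muc2 against the rest of cluster 0 (0.62, and -2.51 at low mitochondrial share) and Reg3b against cluster 4 (0.81, and -1.23 in thinned cells). Of 973 list medians 911 stayed between the medians of their genes' main bounds and none past 2-fold changed sign, while 77 under 2-fold did. The share of KO cluster 0 cells was 41.4%, 21.7% and 16.3% at a minimum of 1, 3 and 5 selecting UMIs, 20.6% without H2-M2, 17.0% in thinned cells and 17.5% in cells of at most 10% mitochondrial UMIs. Genes lower than in the rest of cluster 0 numbered 155 and 608 at a minimum of 1 and 5 selecting UMIs, 168 at low mitochondrial share, 191 in male cells, and 593 and 59 at a minimum of 20 and 200 UMIs per gene. Genes higher numbered 178 at low mitochondrial share and 167 at 200 UMIs. Against cluster 4, genes higher numbered 188 in thinned cells, 159 at low mitochondrial share, 194 in male cells, and 497 and 120 at 20 and 200 UMIs, and genes lower 223 in male cells and 660 and 119 at 20 and 200 UMIs. Fewer cells or another gene filter alter how many genes are measured. For the other moves the cause was not tested.

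The M cell median was 1.86 against cluster 4 at a minimum of 1, 2.90 against the rest of cluster 0 in male cells, and 2.56 against cluster 4 without the cells there that met the rule, a setting added after seeing the data. The NF-κB median was 1.13 against cluster 4 in male cells. The colonocyte median against the rest of cluster 0 was 0.56 at a minimum of 5, 0.56 without mixed-sex droplets and 0.17 at low mitochondrial share, and against cluster 4 it was -0.10 in male cells. The S phase median was -1.56 against the rest of cluster 0 in thinned cells, and -1.005 and -0.97 against cluster 4 at a minimum of 5 and in thinned cells. At a minimum of 1, Slc4a4 (-0.52) and Ugt2b35 (-0.996) were under 2-fold against cluster 4 and Gsdmc2 (-0.96) against the rest of cluster 0, as was Saa1 (0.84) by the mean of per-cell CPM. No paired analysis was possible because each genotype has 1 library.

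The limits are the same for every value here. Each genotype has 1 library, so differences between animals, preparations and genotypes cannot be told apart, and intervals are too narrow for anything but counting error. Genes under 50 UMIs over both groups were not compared, which leaves out every B cell and every T and NK cell marker in the lists. At this depth the ratios of Mettl14 and Tnf have intervals that hold equal levels. Sums over cells can rest on a few cells, as for Gp2, Slpi, Saa1 and Car1.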

Other observations

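Lists on metabolism and stress were mostly level in the selected cells. None of 37 measured oxidative phosphorylation genes was 2-fold apart from the rest of KO cluster 0 or from cluster 4 (medians 0.14 and -0.00). Of 29 measured fatty acid, ketone and retinoid genes, 5 were higher than in the rest of cluster 0, among them Rbp2, a retinol-binding protein (17.5 against 2.61 CPM, 2.75), Plin2 of lipid droplets (1.55), and Decr1 (1.35) and Slc25a20 (1.42) of fatty acid oxidation. Rbp2 reached the minimum of UMIs mainly through the selected cells and so had to differ from the rest of cluster 0. Rbp2 was below cluster 4 (27.5 CPM, -0.65). Of 23 p53 targets, Gadd45a, a DNA damage gene (42.6 CPM, and 13.5 CPM in cluster 4), and Pmaip1 were higher and none lower. Pmaip1 also reached the minimum mainly through the selected cells and so had to differ from the rest of cluster 0. Of 32 genes of the integrated stress and unfolded protein responses Psat1 was lower (-1.49) and none higher.

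Goblet cell RNA was spread unevenly over the selected cells. Tff3 was seen in 109 of the 215 (50.7%) and in 51.2% of the rest of KO cluster 0, where 3 cells held 33.8% of its UMIs. Tff3, a mucus peptide, stood at 1166 CPM, with 62.8% of its 2466 UMIs in 3 cells, and 51.5% of the 553 UMIs of the mucin Muc2 also lay in 3 cells. S100a8, a neutrophil and stressed-epithelium gene, had 32 UMIs in 17 selected cells and 1 UMI in the 601 remaining cells of the cluster.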
